A study of Homo sapiens with 9 samples.

Results

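Among the 62710 genes of the deposited table, 52 were lower in A375R melanoma cells treated with VHL-r alone than in DMSO-treated cells, but were at no less than 0.95 of the DMSO mean when VHL-r was part of the full molecule R4VPL3-1. They were chosen from the deposited values by 4 criteria. A gene needed a mean of at least 50 normalized counts over the 9 libraries, a VHL-r mean of at most 0.85 of the DMSO mean, an R4VPL3-1 mean of at least 0.95 of the DMSO mean, and all 3 VHL-r values below the 6 other values. JUN and ADM met these criteria and were left out. The 52 genes, called members here, are therefore low in VHL-r by choice, and their levels in the 3 groups are a description without a test. They comprise 38 protein-coding genes and 14 long noncoding RNA (lncRNA) genes, 3 of which have no symbol and are named by their Ensembl identifier.

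A375R is a human melanoma cell line derived from A375 and resistant to the BRAF inhibitor PLX4032. VHL-r is a ligand of VHL, the substrate receptor of an E3 ubiquitin ligase, and R4VPL3-1 is a PROTAC-like molecule in which VHL-r is joined by a linker to a moiety that binds the ubiquitin ligase RNF4. For 2 h the cells received DMSO as control or either compound at 10 µM, with 3 libraries per group described as biological repeats, and polyadenylated RNA was sequenced. The labels name the control libraries wild type without a dose, and DMSO is the control of the study's methods. All groups share the line and its acquired resistance, and the study's methods state that A375R was kept in medium with PLX4032, so a parental A375 line is no part of the comparison. Repeats of a single cell line measure the spread between cultures of that line only.

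VHL is best known for marking the alpha subunits of hypoxia-inducible factors (HIF) for destruction, after a proline of these proteins has been hydroxylated. A VHL ligand occupies the pocket that recognises this proline, which is why such ligands serve to recruit the ligase in PROTACs. RNAs with a short half-life, such as those of immediate early genes, can move within a short treatment, and the members include transcription factors of this class, regulators of growth signalling, a sterol carrier and nuclear noncoding RNAs.

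The recovered reads summed to between 26435568 and 32085626 per library. SOX10, MITF, DCT and S100B, markers of the melanocytic lineage, were detected, whereas MLANA was at 0, TYR had a mean of 0.35 normalized counts and the leukocyte markers PTPRC, CD3E and CD68 had means of at most 4.62. LYZ, a further leukocyte marker, had a mean of 115.75. KRT10, with a mean of 1810.3, and COL1A1, with 1065, were also detected, although they mark keratinocytes and fibroblasts. The median gene with a mean of at least 50 was at 99.5% of DMSO in VHL-r and at 99.2% in R4VPL3-1, both after scaling by size factors.

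Most genes with a low VHL-r mean were also under 0.95 of DMSO in R4VPL3-1, and the criteria selected from the rest. The VHL-r and R4VPL3-1 ratios both divide by the same 3 DMSO libraries, so they are not independent. Of 12038 genes whose mean was 50 or more, 1334 had a VHL-r mean of at most 0.85 of DMSO, and 1248 of these 1334 were also under 0.95 of DMSO in R4VPL3-1. The remaining 86 met both ratios, and in 32 of them a VHL-r value reached those of another group. The plot of both responses per gene shows the members beside the main diagonal. For comparison, 862 genes were at most 0.85 of DMSO in both compounds with all 6 values below the 3 DMSO values, and 30 genes met the same criteria as the members with the compounds exchanged.

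**Figure D1:**
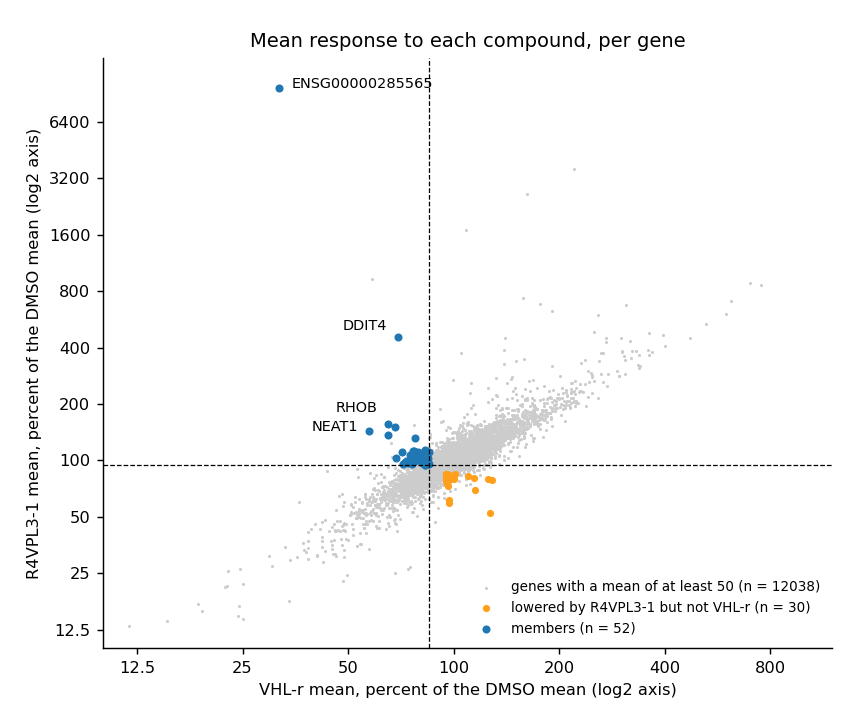
Mean of VHL-r (x axis) and of R4VPL3-1 (y axis) as a percentage of the DMSO mean, both on log2 axes, for the 12038 genes whose mean was 50 or more normalized counts (grey), the 52 members (blue) and the 30 genes chosen with the compounds exchanged (orange); dashed lines mark 85% and 95%. Most genes lie along the diagonal, most members lie within 25% above the horizontal line, and DDIT4 and ENSG00000285565 stand far above it.

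In VHL-r the members lay between 31.8% and 84.97% of DMSO with a median of 81.0%. A single member was at or below 50%, 13 were at or below 75%, and 28 were above 80%, so most members were only slightly under the threshold. In R4VPL3-1 they lay between 95.04% and 9667% with a median of 101%. Here 34 members were within 5% of the DMSO mean, 11 were above it by more than 5% and at most 25%, and 7 by more than 25%. The R4VPL3-1 mean was below the DMSO mean in 24 of the 52, all of them within the allowed margin. In bulk RNA, a lower value in every cell and fewer cells that hold the RNA cannot be told apart. The heat map of members shows this contrast between a uniform VHL-r block and an R4VPL3-1 block that is mostly pale.

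**Figure D2:**
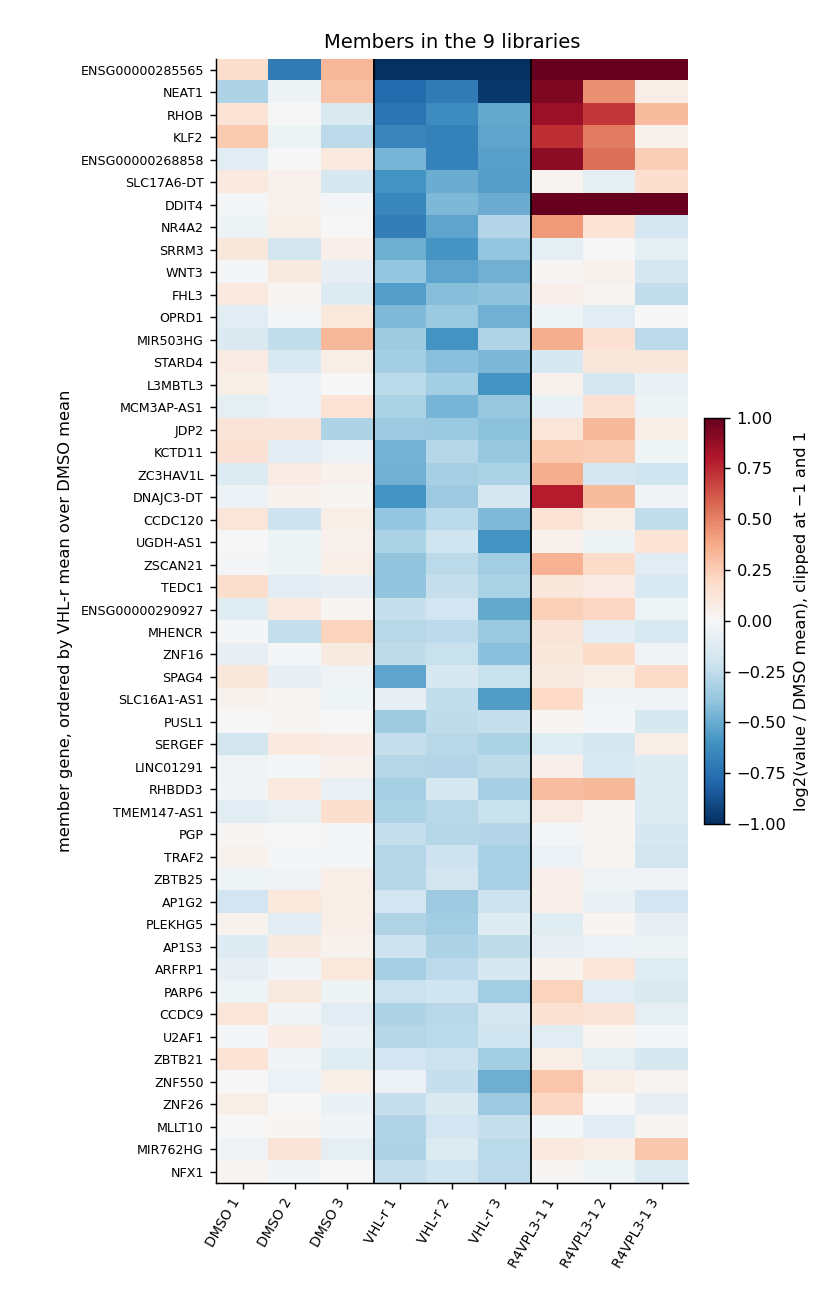
Each row is one of 50 of the 52 members and each column one of the 9 libraries; colour gives log2 of the value over the gene's DMSO mean, clipped at −1 and 1. All rows are blue in the 3 VHL-r libraries by choice, while in R4VPL3-1 the red cells are concentrated in the upper rows and in replicate 1.

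The sequences before the start of 6 members are shown, picked after their values and letters were seen. DDIT4, RHOB and KLF2 are among the members with the highest ratio of R4VPL3-1 to VHL-r, STARD4 is a sterol gene, DNAJC3-DT lies beside a chaperone gene described further on, and KCTD11 is shown for its letters. Each line gives the 250 bases upstream of the RefSeq start, 5′ to 3′ on the gene's strand, from the GRCh38.p14 assembly. The RefSeq start can differ from that of the Ensembl gene in which reads were counted. The KCTD11 line lies wholly within its Ensembl gene (7351889 to 7354944), and the lines of STARD4, DNAJC3-DT and DDIT4 reach into theirs. Capitals mark the letters ACGTG, the core of the element bound by HIF, or TGACG, the core of the cAMP response element, on either strand.
DDIT4 (chr10:72273674-72273923, plus strand): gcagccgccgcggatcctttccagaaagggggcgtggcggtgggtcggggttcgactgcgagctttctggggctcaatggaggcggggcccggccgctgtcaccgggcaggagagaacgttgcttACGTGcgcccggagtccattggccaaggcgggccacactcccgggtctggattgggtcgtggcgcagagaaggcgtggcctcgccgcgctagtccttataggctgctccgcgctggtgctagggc
RHOB (chr2:20446824-20447073, plus strand): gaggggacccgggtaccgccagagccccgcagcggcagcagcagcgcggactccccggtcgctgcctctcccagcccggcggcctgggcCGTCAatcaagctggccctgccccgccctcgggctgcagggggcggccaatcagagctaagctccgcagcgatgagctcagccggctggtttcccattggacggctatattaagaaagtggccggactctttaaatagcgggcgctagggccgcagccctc
KLF2 (chr19:16324576-16324825, plus strand): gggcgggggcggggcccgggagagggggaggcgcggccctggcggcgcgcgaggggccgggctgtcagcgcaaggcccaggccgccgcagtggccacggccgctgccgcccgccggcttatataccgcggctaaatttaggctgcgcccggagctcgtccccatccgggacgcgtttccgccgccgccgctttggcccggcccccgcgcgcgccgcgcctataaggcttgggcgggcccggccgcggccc
KCTD11 (chr17:7351912-7352161, plus strand): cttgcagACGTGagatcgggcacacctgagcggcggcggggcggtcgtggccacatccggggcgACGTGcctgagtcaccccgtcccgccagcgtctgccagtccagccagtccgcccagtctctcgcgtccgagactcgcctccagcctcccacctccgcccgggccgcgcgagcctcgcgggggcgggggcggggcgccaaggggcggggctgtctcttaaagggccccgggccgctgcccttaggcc
STARD4 (chr5:111512536-111512785, minus strand): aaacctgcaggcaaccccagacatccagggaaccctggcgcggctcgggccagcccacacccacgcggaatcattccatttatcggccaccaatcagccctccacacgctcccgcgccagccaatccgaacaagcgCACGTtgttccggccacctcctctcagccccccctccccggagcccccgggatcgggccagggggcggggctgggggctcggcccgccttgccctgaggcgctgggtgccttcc
DNAJC3-DT (chr13:95676926-95677175, minus strand): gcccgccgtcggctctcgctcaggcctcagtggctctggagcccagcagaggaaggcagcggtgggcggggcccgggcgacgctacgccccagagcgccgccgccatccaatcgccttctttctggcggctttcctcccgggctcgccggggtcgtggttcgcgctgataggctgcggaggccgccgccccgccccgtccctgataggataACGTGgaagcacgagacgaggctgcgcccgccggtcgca

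DDIT4, STARD4 and DNAJC3-DT held the letters ACGTG at a single place, KCTD11 held them at 2 places, and RHOB held TGACG on the reverse strand. KLF2 held neither. In windows from 250 bases before to 50 bases after the start, which were found for 39 of the 52 members, ACGTG occurred on either strand in 15, which is 38.5%. The share was 27.3% for the 9430 genes with a window whose mean was 50 or more and 27.1% for the genes lowered by both compounds. It was 33.3% for the 21 genes with a window chosen with the compounds exchanged, and 21.6% for all 27305 promoters. In 4 of the 15 members, CCDC9, OPRD1, PARP6 and ZBTB21, the letters lay within CACGTG, the E-box. The E-box was thus in 10.3% of the 39 windows, against 10.2% for genes whose mean was 50 or more. TGACG was found in 14 of the 39 (35.9%), near the 34.9% of all genes whose mean was 50 or more. None of the 39 windows held TATAAA, which 5.30% of the windows of genes with that mean held. None held GAANNTTC or TCACNCCAC, the cores searched for heat shock factor and for the sterol response element. These were in only 4.63% and 1.06% of the windows of genes with that mean, so their absence from 39 windows says little. In all, 12 letter patterns were searched. The GC box GGGCGG was in 74.4% of the 39 windows, against 71.0% for genes with that mean. CCAAT was in 28.2% against 37.4%, the ETS core CCGGAA in 25.6% against 30.7%, and the antioxidant response core TGACNNNGC in 7.69% against 15.25%. The AP-1 site TGANTCA and the YY1 site AAGATGG were each in 2.56%, against 4.39% and 7.93%. These matches describe letters in a window and no binding.

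DDIT4 (ENSG00000168209, chromosome 10 from 72273919 to 72276036), whose product inhibits the growth regulator mTORC1 and is known to be induced by hypoxia and other stress, showed the widest gap between the compounds of any member with more than 50 normalized counts in DMSO. Its values were 3215, 3355 and 3226 normalized counts in DMSO, 2073, 2392 and 2318 in VHL-r, and 18120.2, 16346 and 10017 in R4VPL3-1. The 3 groups did not overlap, and the lowest R4VPL3-1 value was far above every value of the other groups. VHL-r was thus at 69.3% of DMSO and R4VPL3-1 at 454%. DDIT4 also had the highest level per length of transcript among the members, 3890 normalized counts per kb as a mean of all libraries, followed by RHOB with 1765.

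RHOB (ENSG00000143878, chromosome 2 from 20447074 to 20449440) encodes a small GTPase of endosomes and actin regulation, and its RNA is that of an immediate early gene. It was at 4288, 3888 and 3536 normalized counts in DMSO, at 2341, 2520.1 and 2739.8 in VHL-r, and at 7046, 6370.3 and 4873 in R4VPL3-1. Again no value of a group fell within the range of another group. The VHL-r mean was 64.9% and the R4VPL3-1 mean 156% of the DMSO mean.

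NEAT1 (ENSG00000245532, chromosome 11 from 65422774 to 65445540), the noncoding RNA around which nuclear paraspeckles assemble, was the lowest member in VHL-r among those with more than 50 normalized counts in DMSO. It gave 2274, 2722 and 3459 normalized counts in DMSO and 1652, 1737 and 1446 in VHL-r. In R4VPL3-1 it gave 5369.9, 3873 and 2954, and replicate 3 of that group lay within the DMSO range. The means were 57.2% and 144% of DMSO. Polyadenylated RNA was selected, so the reads represent NEAT1 only as far as its RNA was captured in this way.

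Transcription factors among the members include KLF2, NR4A2 and JDP2. KLF2 (ENSG00000127528, chromosome 19 from 16324826 to 16328685), a zinc finger factor known from endothelium and quiescent T cells, was at 1186, 952 and 824 normalized counts in DMSO, 624, 619.8 and 686 in VHL-r, and 1648, 1419 and 1009.6 in R4VPL3-1. The R4VPL3-1 values of KLF2 overlapped those of DMSO through replicate 3, and the group means were 65.2% and 138% of DMSO.

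NR4A2 (ENSG00000153234, chromosome 2 from 156324437 to 156342348), an orphan nuclear receptor, was at 523, 563 and 539 normalized counts in DMSO, 335, 376 and 442 in VHL-r, and 728, 595 and 482 in R4VPL3-1. Its R4VPL3-1 libraries lay on both sides of the DMSO range, with a mean at 111% of DMSO against 71.0% for VHL-r. JDP2 (ENSG00000140044, chromosome 14 from 75427716 to 75474111) encodes a leucine zipper protein that pairs with JUN and represses AP-1. It gave 104, 104 and 77.1 normalized counts in DMSO, 74.0, 73.5 and 71.7 in VHL-r, and 104, 119 and 99.6 in R4VPL3-1. DMSO replicate 3 of JDP2 was close to the VHL-r values, and the means were 76.7% and 113% of DMSO.

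**Figure D3:**
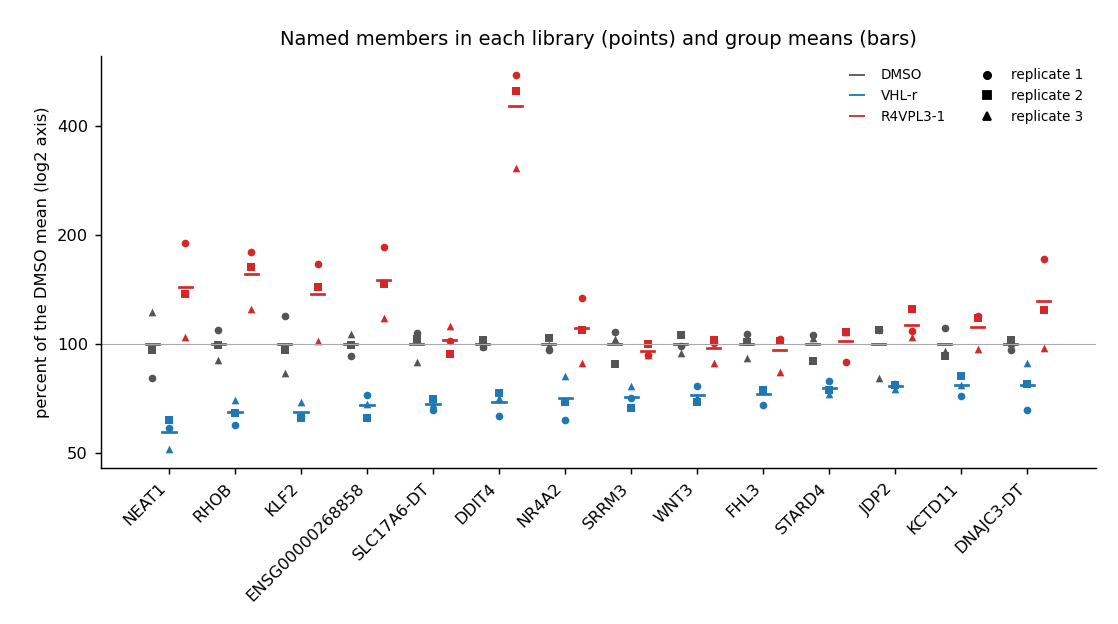
Values of 14 members in each library as a percentage of the gene's DMSO mean on a log2 axis; colour gives the group, point shape the replicate and horizontal bars the group mean. VHL-r values (blue) are the lowest of each gene by choice, and for NEAT1, RHOB, KLF2, ENSG00000268858, DDIT4, NR4A2 and DNAJC3-DT the R4VPL3-1 circle (replicate 1) is the highest point and the triangle (replicate 3) the lowest of its group.

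STARD4 (ENSG00000164211, chromosome 5 from 111496033 to 111512590) encodes a carrier of sterol between membranes. It was at 372, 317 and 366 normalized counts in DMSO, 278, 264 and 257 in VHL-r, and 315, 380.1 and 380.1 in R4VPL3-1. The R4VPL3-1 and DMSO values overlapped, with an R4VPL3-1 mean at 102% of DMSO, while the VHL-r mean was at 75.7%.

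WNT3, a secreted ligand of the Wnt pathway, was at 106, 114 and 101 normalized counts in DMSO, 82.1, 74.6 and 76.8 in VHL-r and 108, 110.4 and 95.3 in R4VPL3-1. OPRD1, the delta opioid receptor, was at 452, 481 and 523 in DMSO, 358, 375.01 and 348 in VHL-r and 472, 448 and 486 in R4VPL3-1. In both genes the DMSO and R4VPL3-1 ranges overlapped. FHL3, a LIM-domain protein, and SRRM3, a splicing factor known from neurons, were at 72.8% and 71.5% of DMSO in VHL-r and at 96.5% and 95.8% in R4VPL3-1.

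KCTD11, an adaptor of the CUL3 ubiquitin ligase, was at 419.5, 352 and 364 normalized counts in DMSO, at 273, 309.9 and 292 in VHL-r and at 454, 449 and 368 in R4VPL3-1. R4VPL3-1 replicate 3 of KCTD11 lay among the DMSO values. TRAF2, an adaptor of tumour necrosis factor receptors, was among the members nearest to the R4VPL3-1 threshold, at 82.9% of DMSO in VHL-r and 95.1% in R4VPL3-1. Members of membrane traffic were the clathrin adaptor subunits AP1G2 and AP1S3, which are not related to the transcription factor AP-1, and the trans-Golgi GTPase ARFRP1, all of them between 83.8% and 83.9% in VHL-r.

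The 10 members nearest to the DMSO level in R4VPL3-1 include PARP6, CCDC120, ZBTB25, TMEM147-AS1, MCM3AP-AS1, ARFRP1, TEDC1 and ZC3HAV1L, which ran from 99.4% of DMSO for TMEM147-AS1 to 101% for ZC3HAV1L. The spread of their libraries was wider than this. PARP6, for example, had an R4VPL3-1 mean of 728 ± 107 normalized counts (SD, n = 3) and a DMSO mean of 729 ± 41.3 (SD, n = 3).

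By symbol, ZSCAN21, ZNF16, ZNF550, ZNF26, ZBTB25 and ZBTB21 belong to families of zinc finger genes, which is 6 of 52 members or 11.5%. Such symbols made up 3.91% of genes whose mean was 50 or more, 6.03% of those lowered by both compounds and 0 of the 30 genes chosen with the compounds exchanged. Their VHL-r means ran from 79.2% of DMSO for ZSCAN21 to 84.4% for ZNF26, and their R4VPL3-1 means from 96.0% for ZBTB21 to 111% for ZSCAN21. ZFP62, another zinc finger gene, missed the VHL-r threshold at 85.02%. These symbols were grouped after the members were seen, the shares are given without a test, and zinc finger proteins with other symbols, such as KLF2 and NFX1, are not in the count.

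The lncRNA genes were 14 of 52 members, or 26.9%, against 7.29% of genes whose mean was 50 or more, 12.53% of the genes lowered by both compounds and 6.67% of the 30 genes chosen with the compounds exchanged. Members had low levels, with a median over all libraries of 388 normalized counts against 958 for genes whose mean was 50 or more, and lncRNA genes are more frequent at low levels. Within the genes with a mean from 50 to 500, 11 of 29 members were lncRNA genes (37.9%) against 19.3% of 4044 genes. These shares are given without a test.

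Besides NEAT1, the lncRNA member with the highest values was LINC01291, at 728, 743 and 771 normalized counts in DMSO, 614, 610.3 and 628 in VHL-r and 774, 674 and 683 in R4VPL3-1. Its R4VPL3-1 mean, at 95.04% of DMSO, was the lowest among the members. ENSG00000268858 (chromosome 20 from 63861212 to 63864293) was at 204, 219 and 235 in DMSO, 159, 138 and 151 in VHL-r and 408, 322 and 260.1 in R4VPL3-1. The 3 groups of this unnamed lncRNA gene did not overlap, and the means were 67.9% and 150.3% of DMSO. SLC17A6-DT was at 68.4% in VHL-r and 103% in R4VPL3-1.

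For 7 lncRNA members a gene with a mean of at least 10 overlaps on the opposite strand or starts within 1000 bases of their own start, and the reads were counted by strand. These 7 have 9 such partners, and the partners were between 88.6% and 137.6% of DMSO in VHL-r with a median of 110.6%. None of the 9 was at or below 85%, as 11.1% of genes whose mean was 50 or more were. Of 17 such partners of protein-coding members 4 were, namely ZNF3 opposite ZSCAN21 at 72.7%, SKIDA1 opposite MLLT10 at 53.8%, ZNF295-AS1 opposite ZBTB21 at 54.8% and RTEL1-TNFRSF6B opposite ARFRP1 at 69.2%, the last 3 with means under 50. DNAJC3-DT gave 59.9, 64.0 and 62.9 normalized counts in DMSO, 41.0, 48.3 and 55.3 in VHL-r and 107, 77.6 and 61.0 in R4VPL3-1. DNAJC3, a chaperone cofactor of the endoplasmic reticulum that starts close by on the other strand, was at 3284, 3496 and 3315 in DMSO and at 4173, 4097 and 4042 in VHL-r. The partner was thus higher in VHL-r, by 0.29 on the log2 scale (standard error 0.047, limma adjusted p = 0.000125). DNAJC3-DT was at 77.5% of DMSO, and limma did not call it lower (log2 difference -0.372, standard error 0.199).

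SLC16A1, the lactate transporter gene opposite SLC16A1-AS1, was likewise higher in VHL-r, at 110.6% of DMSO (log2 difference 0.15, standard error 0.039, limma adjusted p = 0.0108). SLC16A1-AS1 was at 82.2%, and limma did not call it lower (log2 difference -0.294, standard error 0.106). The adjusted p of SLC16A1 passed the threshold in 18 of 20 alternative fits. The other lncRNA and partner pairs are UGDH-AS1 with UGDH and SMIM14, MCM3AP-AS1 with LSS and MCM3AP, MHENCR with GMEB2, TMEM147-AS1 with TMEM147, and MIR762HG with BCL7C. Among them SMIM14 passed the limma threshold, at 137.6% of DMSO in VHL-r (adjusted p = 0.0493), and it kept its call in 11 of the 20 alternative fits. Among the lncRNA members with a partner, TMEM147-AS1 alone was called lower in VHL-r by limma, so the fall of the others was not called. The plot of the VHL-r libraries shows lncRNA members and partners side by side.

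**Figure D4:**
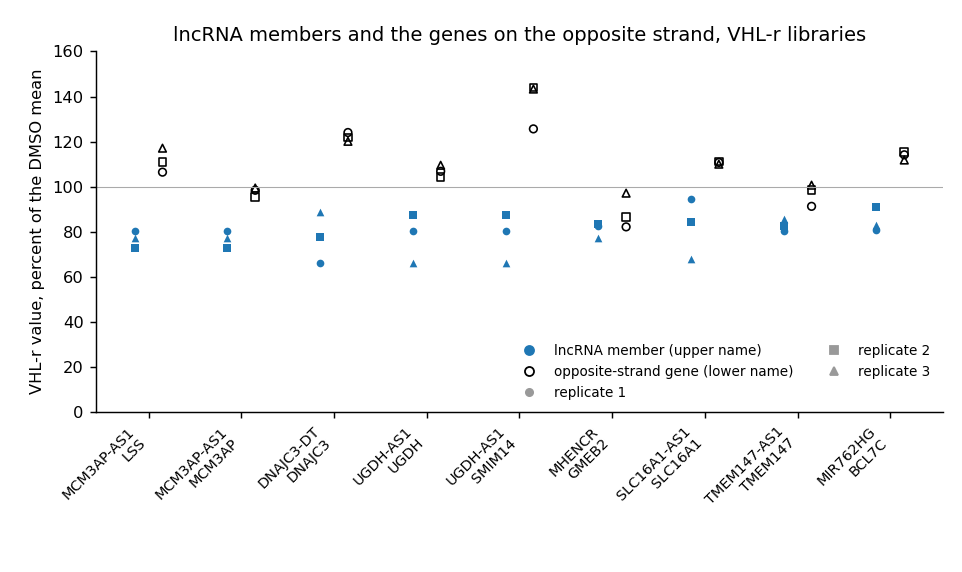
VHL-r values of 7 lncRNA members (filled, upper name) and their 9 opposite-strand partners (open, lower name) as a percentage of each gene's DMSO mean; shapes give the replicate. The lncRNA members are low by choice, and the partners' means lie between 88.6% and 137.6%.

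ENSG00000285565, an unnamed lncRNA gene on chromosome 6 from 31828834 to 31839719, has the most extreme ratios and the weakest base. It had 4, 2 and 4 reads in DMSO, 1 read in each VHL-r library, and 403, 329 and 215 reads in R4VPL3-1. It is the only member whose DMSO mean is below 50, and it passed the level criterion through R4VPL3-1 alone. Its VHL-r to DMSO ratio of 0.318 has an exact 95% interval from 0.0562 to 1.235 for counting error only, which includes 1. Limma called the gene lower in VHL-r (log2 difference -1.02 on the log2(value + 1) scale, standard error 0.337), and this call rests on 10 reads in DMSO against 3 in VHL-r. The ratio of R4VPL3-1 to DMSO was 97.6 from the summed reads and 96.67 from the group means. That R4VPL3-1 was higher was fixed by the level criterion.

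This gene overlaps the heat shock gene HSPA1B on the same strand by 1421 bases, and 92.25% of the 100-base windows of its transcript also occur in another gene, SNHG32 most often. HSPA1B was at 174, 176 and 184 normalized counts in DMSO, 321, 382 and 475 in VHL-r, and 6909.7, 6878 and 5284 in R4VPL3-1. In VHL-r, where the lncRNA gene had single reads, HSPA1B was at 220.8% of DMSO (log2 difference 1.12, standard error 0.11, limma adjusted p = 2.29e-07). The part of HSPA1B in the reads of ENSG00000285565 was not tested.

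Other members share sequence as well. U2AF1, a factor of 3′ splice site recognition, shares 98.58% of its windows with the near-identical copy ENSG00000275895, and its values, at 84.1% of DMSO in VHL-r and 97.8% in R4VPL3-1, are uncertain for that reason. AP1S3 shares 46.9%, SERGEF 22.6%, ENSG00000290927 20.3% and UGDH-AS1 17.4% of their windows with another gene. For 43 of the 52 members no window was shared.

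The spread between replicates was wider in the members than in other genes in DMSO and in R4VPL3-1, and nearly alike in VHL-r. The comparison was not matched for level, and members had a median of 388 normalized counts against 958. The criterion on single VHL-r values also bears on these spreads. The median coefficient of variation was 7.29% in DMSO, 5.57% in VHL-r and 8.78% in R4VPL3-1 for the members, and 4.83%, 5.20% and 5.31% for genes whose mean was 50 or more. In R4VPL3-1, replicate 1 was the highest library in 31 members (59.6%, against 32.5% of the genes with that mean) and replicate 3 the lowest in 36 (69.2%, against 38.9%). Each of the 7 members more than 25% above DMSO, which are ENSG00000285565, DDIT4, RHOB, ENSG00000268858, NEAT1, KLF2 and DNAJC3-DT, had replicate 1 highest and replicate 3 lowest. Without R4VPL3-1 replicate 1 these ratios were smaller, for example 404% of DMSO for DDIT4, 144% for RHOB, 122.9% for KLF2 and 121% for NEAT1. The labels do not say how the cultures of the replicates differed.

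All 3 R4VPL3-1 values were above all 3 DMSO values in 4 of the 52, ENSG00000285565, RHOB, ENSG00000268858 and DDIT4, whereas 19.3% of genes whose mean was 50 or more showed this. Having all 3 VHL-r values below the 6 others, which the criteria required, was met by 213 of the 12038 genes (1.77%).

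When limma was fitted to the 15230 genes whose mean was 10 or more, 34 of the 52 members were called lower in VHL-r than in DMSO, where 9.51% of all genes tested were. Between the compounds, R4VPL3-1 exceeded VHL-r past the threshold in 18 members, against 1.14% of all genes tested. In R4VPL3-1 against DMSO, 6 members were called higher (ENSG00000285565, DDIT4, RHOB, ENSG00000268858, NEAT1 and KLF2) and 0 lower, and the background in this comparison was 13.1% higher, 11.8% lower and 24.9% in either direction. The call of ENSG00000285565 was fixed by the level criterion, and the criteria kept out decreases below 0.95 of DMSO in R4VPL3-1. All of these counts follow from the choice of the members and support nothing. The 18 members not called lower in VHL-r include genes with low values such as JDP2, DNAJC3-DT, MIR503HG and SPAG4.

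Between the members and the genes just outside there was no step. Just inside the VHL-r threshold were NFX1 at 84.97% of DMSO, MIR762HG at 84.88%, MLLT10 at 84.62% and ZNF26 at 84.45%, and just outside were ZFP62 at 85.02%, XRCC2 at 85.15%, ZNF473 at 85.2%, PRRT3-AS1 at 85.62% and SLC30A1 at 85.63%. At the R4VPL3-1 threshold LINC01291, TRAF2, SERGEF, AP1G2 and L3MBTL3 were inside, from 95.04% to 95.66%, while C10orf95-AS1 at 94.98%, HOMER3 at 94.46%, ZNF143 at 93.27%, LENG1 at 93.13% and LINC00511 at 93.08% were outside. By level, MIR762HG, SPAG4, DNAJC3-DT, ZC3HAV1L and MCM3AP-AS1 had the lowest means, from 52.4 to 74.98 normalized counts, and ENSG00000272106, FBXL9P, C17orf67, LMCD1-AS1 and ENSG00000271793 were left out with means under 50.

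Members were looked up in 23 gene lists of known pathways, of which 20 held no member and 3 held 5 members in all. JUN and ADM met the criteria but were left out of the members, and so of this count. Over all genes that met the level criterion, 0.432% were members, and no such share was computed for the list genes. The lists were written with earlier results of these data known, and no set test was made. The plot of the 3 lists sets their genes beside the members.

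In the cholesterol list, 23 genes were tested, with a median log2 difference of -0.014 between VHL-r and DMSO against -0.005 over all genes tested. Of these, 2 were called lower and 3 higher, where 9.51% and 10.3% of all genes tested were. Both genes called lower, STARD4 among them, are the members of the list, which the criteria chose as low in VHL-r. The 3 called higher were INSIG1, which retains the sterol sensor in the endoplasmic reticulum, and IDI1 and SC5D, enzymes of the synthesis pathway. INSIG1 was at 848, 881 and 921 normalized counts in DMSO, 1297, 1437 and 1471 in VHL-r and 3442, 2987 and 2757 in R4VPL3-1. Its groups did not overlap, and it was higher in VHL-r by 0.66 (standard error 0.07, limma adjusted p = 5.79e-07) and in R4VPL3-1 by 1.79 (limma adjusted p = 1.18e-13) on the log2 scale.

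IDI1 was at 138.4% of DMSO in VHL-r (log2 difference 0.47, limma adjusted p = 1.19e-06) and SC5D at 126.5% (0.34, limma adjusted p = 0.000106). Of the 23 genes, 7 were called with R4VPL3-1 above VHL-r and 0 with it below, where 1.14% of all genes tested were called above. The 7 include the 2 members of the list, STARD4 among them, which the criteria chose as low in VHL-r.

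The list of AP-1 and immediate early genes held KLF2 and NR4A2. Of 29 genes tested, 13 were called higher and 11 lower in VHL-r than in DMSO, against 10.3% and 9.51% of all genes tested. Both members, chosen as low in VHL-r, were among those called lower. KLF6, a relative of KLF2, was at 2128, 1996 and 1810.1 normalized counts in DMSO, 843, 880.3 and 855 in VHL-r and 2040.2, 1815 and 1337 in R4VPL3-1. It was lower in VHL-r than any protein-coding member, at 43.4% of DMSO (log2 difference -1.20, standard error 0.1, limma adjusted p = 2.07e-08), and it is no member because its R4VPL3-1 mean was 87.5% of DMSO. R4VPL3-1 replicate 3 of KLF6 lay below the DMSO range while replicates 1 and 2 lay within it.

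The related receptors NR4A3 and NR4A1 are no members. NR4A3 was at 238, 158 and 170.4 normalized counts in DMSO, 306, 298 and 296 in VHL-r and 346, 330.3 and 309 in R4VPL3-1. It was higher in both compounds, by 0.69 (limma adjusted p = 0.000272) in VHL-r and by 0.82 (limma adjusted p = 3.03e-05) in R4VPL3-1 on the log2 scale. NR4A1 was at 94.5% of DMSO in VHL-r and 98.7% in R4VPL3-1, with overlapping groups, and passed the test in neither comparison (limma adjusted p = 0.598 and 0.935). The difference between the receptors was not tested.

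DDIT4 was the member in the list of the integrated stress response and its factor ATF4. Of 30 genes tested, 6 were called higher and 2 lower in VHL-r, against 10.3% and 9.51% of all genes tested, and the median log2 difference of the list was 0.005. The genes called lower were DDIT4, which the criteria chose as low in VHL-r, and STC2. STC2 was lower in both compounds, at 59.2% (limma adjusted p = 3.81e-05) and 71.0% (limma adjusted p = 0.00199) of DMSO. The 6 called higher include SESN2, DDIT3 and ATF4. SESN2, which like DDIT4 restrains mTORC1, was at 565, 604 and 632 normalized counts in DMSO, 1467, 1504 and 1763 in VHL-r and 2454, 2209 and 2106 in R4VPL3-1.

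The 3 groups of SESN2 did not overlap, and it was higher in VHL-r by 1.39 on the log2 scale (standard error 0.072, limma adjusted p = 2.43e-11). DDIT3, the stress factor CHOP, was at 139.8% of DMSO in VHL-r (limma adjusted p = 0.00392) and at 452% in R4VPL3-1, close to the 454% of DDIT4. ATF4 itself was at 118.8% (limma adjusted p = 0.00018) and 157.1% of DMSO.

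The lists of HIF targets and of the VHL ligase held no member. ADM, a hypoxia-induced gene of the first list, met the criteria but was left out of the members. ADM was at 66.45% of DMSO in VHL-r and 124.5% in R4VPL3-1. Among the HIF target genes, 27 were tested, of which 8 were called higher and 2 lower in VHL-r. Over all genes tested, 10.3% were called higher and 9.51% lower. EGLN3, a hydroxylase that marks HIF and is itself a HIF target, was at 7.26, 13.8 and 14.2 normalized counts in DMSO, 39.0, 33.6 and 29.7 in VHL-r and 31.8, 35.8 and 31.1 in R4VPL3-1. Both compounds were above every DMSO value, by 1.51 (limma adjusted p = 0.000413) for VHL-r and 1.46 (limma adjusted p = 0.000435) for R4VPL3-1 on the log2 scale. Of the 10 tested genes of the VHL ligase and of HIF sensing, 2 were called higher and 1 lower in VHL-r, against the same 10.3% and 9.51%. VHL itself was at 103.4% of DMSO (limma adjusted p = 0.625).

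The gene structure of the members is given beside that of other genes. The median span of a member in the genome was 20.1 kb against 35.7 kb for genes whose mean was 50 or more. It was 25.2 kb for the genes lowered by both compounds and 17.0 kb for those chosen with the compounds exchanged. The median number of exons was 5 against 9 for genes with that mean, and 16 members (30.8%) were shorter than 10 kb against 18.1%. The genes lowered by both compounds were like the members, with a median of 5 exons and 31.1% under 10 kb. So were those chosen with the compounds exchanged, with 4.5 exons and 33.3% under 10 kb. GC content of the transcript had a median of 54.5% against 47.8% for the genes with that mean, 49.4% for the genes lowered by both compounds and 51.5% for those chosen with the compounds exchanged. Among protein-coding genes alone the medians were 54.7% and 47.7%. The promoter windows of members were also rich in GC, with a median of 69.7% against 65.7%. The genes compared share libraries and depth with the members, and none of these features was tested.

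In the genome the members lay on many chromosomes, and few were neighbours. On chromosome 20, MHENCR, ARFRP1 and ENSG00000268858 lie near each other, with gaps of 69.8 kb and 153.2 kb between them. The expressed genes in these gaps, 1 and 2 with a mean of at least 50, were not at or below 85% in VHL-r, with medians of 104.1% and 91.8% of DMSO. Chromosome 21 held 3 members, MCM3AP-AS1, U2AF1 and ZBTB21, among 118 genes with that mean, which is 2.54% against 0.432% over all such genes, and U2AF1 is uncertain for its shared sequence.

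Among the genes chosen with the compounds exchanged, which were low in R4VPL3-1 and at the DMSO level in VHL-r, the median was 80.9% of DMSO in R4VPL3-1 and 97.04% in VHL-r. They include EGR3 and KLF10 of the immediate early list, at 61.5% and 79.9% of DMSO in R4VPL3-1 and at 96.9% and 125.4% in VHL-r. The exchanged genes were chosen on the same values as the members, so the sizes of both sets carry no test.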

How the data were processed

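Polyadenylated RNA of A375R cells was measured in 9 libraries, 3 each for DMSO, VHL-r and R4VPL3-1. According to the study's methods, the authors aligned single reads to GRCh38 with STAR, counted reads per Ensembl gene and strand with htseq-count, and divided by DESeq2 size factors (version 1.36.0 per the labels). The deposited values are this normalized signal with 2 decimals, without a log scale, and no value column was left unused. A read on exons of more than 1 gene of the same strand is not assigned by this counter.

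The members and gene lists were chosen with earlier results of these data known. Named genes are the members that belong to a list, the 10 lowest in VHL-r, the 10 highest and the 10 nearest to DMSO in R4VPL3-1, the 8 highest per kb, up to 8 noncoding members by mean, the 5 genes on each side of each threshold, and list genes where a list is described. SLC16A1, SMIM14, DNAJC3 and HSPA1B were named as neighbours of members. FHL3, OPRD1 and other members outside this rule were named by family or beside a count after their values were seen. A few genes, 2 members among them, are counted but not reported here by name.

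All genes with a mean of at least 10 (15230 of 62710) were fitted by limma 3.58.1 in R 4.3.3 with a trend, on log2(value + 1), with all 9 libraries in a single factor, and a gene was called where its p, adjusted by Benjamini-Hochberg over all genes, did not exceed 0.05. Fold changes on this scale understate those of low genes. The fit was tested on simulated data. With 3 libraries against 3 an exact permutation test cannot give a p below 0.1, so single genes rest on the fit over all genes. Whole reads were recovered from the deposited values (within 0.1 of a read) for edgeR 4.0.16, DESeq2 1.42.0 and the interval of ENSG00000285565. No 2 libraries of a group agreed within sampling noise. Exons, strand, GC content and shared windows came from GENCODE 44, matched for 62639 genes, and promoters from RefSeq.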

Additional observations from a re-analysis of the deposited data

How the results depend on the processing

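The number of members depended on the thresholds. It was 24 with VHL-r at most 0.80 of DMSO, 85 with at most 0.90, 28 with R4VPL3-1 at least 1.00 of DMSO, and 84 without the requirement on single libraries. With a mean of at least 20 or 100 it was 65 or 41, with R4VPL3-1 at least 0.90 of DMSO 71, and after rescaling by TMM factors or to the upper quartile 51 or 45, of which 49 and 42 were among the 52. Without each library in turn it ranged from 44 to 77. Of the 52, 17 met the criteria without each of the 9 libraries in turn, among them DDIT4, RHOB, NEAT1, KLF2, NR4A2 and STARD4. No VHL-r ratio of a member moved by more than 1 SD under rescaling. The R4VPL3-1 ratio of AP1S3 did, from 95.66% to 94.47% of DMSO with the upper quartile. Of 520 member ratios under rescaling or without 1 library, 31 moved by more than 1 SD. Without 1 library the VHL-r mean of a member reached up to 90.66% of DMSO.

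Members called by limma as lower in VHL-r than in DMSO numbered 34, and 21 to 35 without each library in turn, with 21 without VHL-r replicate 2. Members with a call of R4VPL3-1 above VHL-r numbered 18, and 10 to 23, with 11 without VHL-r replicate 2, 10 without R4VPL3-1 replicate 1 and 11 without R4VPL3-1 replicate 2. Over all genes, 174 had a call of R4VPL3-1 above VHL-r, and 113 to 232 without each library in turn, with 113 without R4VPL3-1 replicate 1. The cause was not tested. The other counts of calls stayed within 1.5 times under every alternative run.

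The labels do not say whether same-numbered replicates were handled together. The correlations of their deviations lay between -0.006 and 0.121, and a shared effect of the replicate number was not tested. Over all genes, a replicate block gave 1684 calls lower in VHL-r than in DMSO, against 1448 without it. It gave 228 against 174 with R4VPL3-1 above VHL-r, and 4241 against 3792 in R4VPL3-1 against DMSO. With a replicate block, 37 members were called lower in VHL-r than in DMSO, 24 with R4VPL3-1 above VHL-r and 6 in R4VPL3-1 against DMSO.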

Other observations

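Among the 30 genes that met the criteria with the compounds exchanged, the lowest in R4VPL3-1 were TRIB1, a pseudokinase that steers protein degradation, at 52.2% of DMSO in R4VPL3-1 and 126.7% in VHL-r, and HOXA3, a homeobox factor, at 59.0% and 97.2%. DGAT2, an enzyme of triglyceride synthesis, was at 69.5% and 114.9%. They were chosen by these values, which are given as a description.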
